A study of Homo sapiens with 12 samples.

Results

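The transcripts of 8 ATP-binding cassette (ABC) transporters that pump drugs and their conjugates out of cells were followed through 3 lung cancer lines with and without added ZNF263. The members, chosen by name with earlier results of these data known, were ABCB1, ABCG2, ABCC1, ABCC2, ABCC3, ABCC4, ABCC5 and ABCC10. They are 8 of the 20003 genes of the expression table. ABC transporters use ATP hydrolysis to move substrates across a membrane. ABCB1 (P-glycoprotein) and ABCG2 (breast cancer resistance protein) export unmodified drugs, osimertinib among them, whereas the ABCC members (multidrug resistance proteins) mostly export organic anions such as glutathione, glucuronide and sulfate conjugates. In airway epithelium several of them clear oxidised lipids, conjugates and signalling molecules.

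The study compared PC9, HCC827 and H1975 cells carrying a vector that expresses ZNF263, a DNA-binding zinc finger protein of the KRAB family, with cells of the same line carrying a control vector. The sample titles call the lines PC9OR, HCC827OR and H1975OR and do not explain the added OR, and the names without it are used here. PC9, HCC827 and H1975 are established human lung adenocarcinoma lines with activating mutations of EGFR, the receptor kinase that osimertinib inhibits, and every group, controls included, had been exposed to osimertinib in steps and grown in DMEM. RNA was sequenced with 2 libraries for each line and vector, 12 libraries in 6 groups, and values are FPKM, fragments scaled by gene length and library size. The sources used here do not give the osimertinib dose, the promoter of the vector or whether libraries came from separate cultures. Every p-value therefore rests on the spread between libraries that may be technical repeats.

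ZNF263 itself was higher in the libraries that carry its vector, by 1.96 on the log2 scale in PC9, by 0.62 in HCC827 and by 1.89 in H1975. Each library had from 10672 to 10997 genes at 1 FPKM or more. Summed lung epithelial markers (10 genes, of which 5 rose in PC9, 3 rose and 2 fell in HCC827, and 1 rose and 6 fell in H1975) ran from 3960 to 4194 FPKM with ZNF263, against 2786 to 2810 in controls in PC9, with SFTPB at 0 in both groups, and from 3380 to 3575 against 3704 to 4166 in HCC827. KRT19 was also at 0 in the PC9 controls, where 4 of the 10 markers averaged at least 1 FPKM, against 5 with ZNF263. KRT18 averaged 1905 FPKM with ZNF263 and 1216 FPKM in controls of PC9. In H1975 the summed epithelial markers ran from 1876 to 1889 with ZNF263 against 3971 to 3982 in controls. Summed fibroblast markers (8 genes, PDGFRA and THY1 at 0 with ZNF263) ran from 176 to 180 FPKM with ZNF263 against 30.9 to 34.2 in controls there. COL1A2 carried that sum, at a mean of 166 against 14.6 FPKM, and of 5 markers tested 3 rose and 2 fell. LUM fell by 1.33. Leukocyte markers (9 of 10 genes with a value) summed to 21.1 to 24.01 FPKM with ZNF263 against 6.74 to 7.78 in controls. Of the 2 tested, CD14 rose by 2.40 and CSF1R fell by 0.75. No endothelial marker averaged 1 FPKM in any group. The part of this shift in the H1975 results was not tested. In bulk libraries, fewer cells that make a transcript and less transcript per cell cannot be told apart.

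With ZNF263, ABCC3 was higher in every line, ABCC10 was higher in H1975 by the largest margin of any member, and no member was called lower in any line by limma, nor lower at an unadjusted p under 0.05. A gene was called at a limma adjusted p under 0.05, with the Benjamini-Hochberg adjustment over all genes tested in a line. In PC9, 2 of 8 members were called, both higher, against 11.3% of the 12623 genes tested (7.21% higher and 4.12% lower). In HCC827, 2 of 8 were called, both higher, against 19.5% of 12266 genes (13% higher and 6.44% lower). In H1975, 4 of 8 were called, all higher, against 64.2% of 12258 genes (32.1% higher and 32.1% lower), so the share of members called there lay below that of all genes. The median change of the 8 members was 0.04 (all genes tested, 0) in PC9, 0.11 (all genes, 0.04) in HCC827 and 0.14 (all genes, 0.0025) in H1975. ABCB1 entered the tests only through its PC9 values, since it stayed under 1 FPKM in the other lines.

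**Figure D1:**
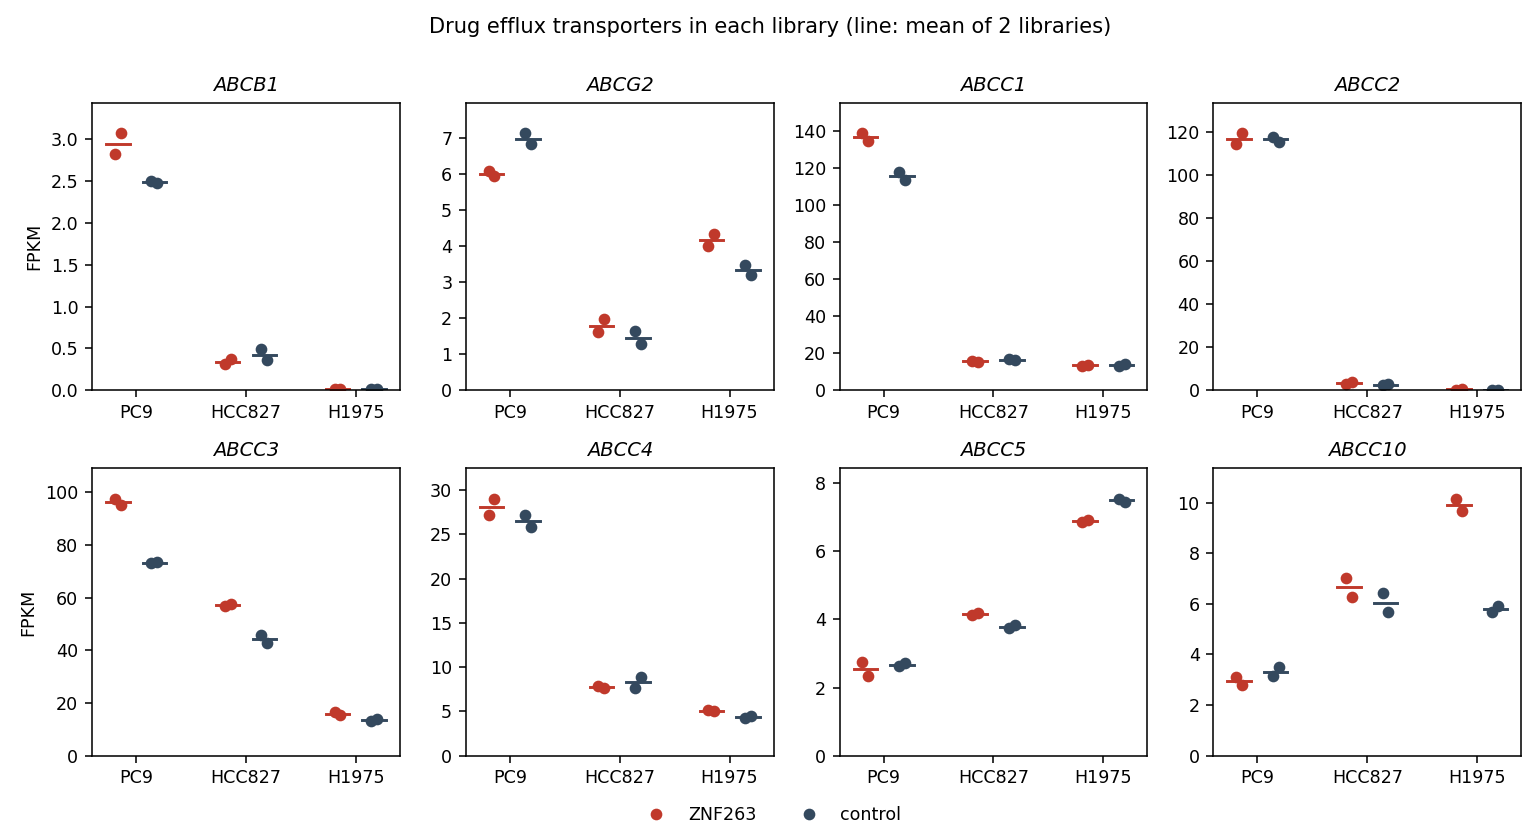
FPKM of the 8 transporters in each library, 1 panel a gene, with the ZNF263 libraries left of the control libraries in each line and a bar at the mean of 2 libraries (each axis starts at 0). ABCC3 lies higher with ZNF263 in all 3 lines, from 95.3 to 97.5 against 73.0 to 73.6 FPKM in PC9, and ABCC10 stands apart in H1975.

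ABCC3 (MRP3), at chr17:50634777-50692252 (GRCh38, plus strand), sits in the basolateral membrane of epithelia and exports glucuronides and bile salts. In PC9 its level was 97.5 and 95.3 FPKM with ZNF263, against 73.0 and 73.6 FPKM in controls. In HCC827 it was 56.8 and 57.6 FPKM with ZNF263, against 46.0 and 42.7 FPKM in controls. In H1975 it was 16.6 and 15.4 FPKM with ZNF263, against 13.3 and 13.9 FPKM in controls. Each ZNF263 library lay above each control library of its line, and the means stood in a ratio of 1.32 in PC9, of 1.29 in HCC827 and of 1.18 in H1975. On the log2(FPKM + 1) scale ABCC3 rose by 0.39 ± 0.055 in PC9 (SE, limma adjusted p = 0.000557), by 0.36 ± 0.055 in HCC827 (limma adjusted p = 0.000815) and by 0.22 ± 0.055 in H1975 (limma adjusted p = 0.0035). The mean over the lines was 0.32 ± 0.032 (limma adjusted p = 3.74e-06).

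ABCC3 was the member called higher in all 3 lines, as were 134 of 12218 genes (1.1%). It passed in each line under every alternative run, with adjusted p-values of at most 0.0311 in PC9, 0.0415 in HCC827 and 0.0498 in H1975. The change was not called different between lines (F test, limma adjusted p = 0.146). Its 95% interval for H1975 minus PC9 ran from -0.34 to -0.00045. That difference was not called (limma adjusted p = 0.0840), but was with quantile normalization (-0.20, limma adjusted p = 0.0337). With 1 library left out it ran from -0.22 to -0.12. Of 75 tested genes within 5 Mb of ABCC3, 6 had a more positive change in PC9, as did 3 of 74 in HCC827 and 10 of 74 in H1975.

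ABCC10 (MRP7), at chr6:43427366-43450430 (plus strand), exports taxanes and some glucuronides. In H1975 its level was 10.1 and 9.69 FPKM with ZNF263, against 5.66 and 5.91 FPKM in controls, with at least 2129 reads behind each ZNF263 value and 1213 behind each control value (reads recovered from the steps of the FPKM values, up to a common factor). The groups were well apart, with a ratio of 1.72. In PC9 it was 3.12 and 2.80 FPKM with ZNF263, against 3.13 and 3.51 FPKM in controls, which did not overlap. In HCC827 it was 7.04 and 6.28 FPKM with ZNF263, against 6.42 and 5.68 FPKM in controls, which overlapped. ABCC10 rose by 0.69 ± 0.083 (SE) in H1975 (limma adjusted p = 1.05e-05). Its log2 change was 0.12 ± 0.083 in HCC827 (limma adjusted p = 0.354) and -0.13 ± 0.083 in PC9 (limma adjusted p = 0.399).

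Between lines the ABCC10 change was not the same (limma F test, adjusted p = 0.000201). It was larger in H1975 than in PC9 by 0.81 ± 0.118 (SE, limma adjusted p = 8.47e-05) and than in HCC827 by 0.57 ± 0.118 (limma adjusted p = 0.00131). Genes around ABCC10 also moved in H1975. Of 66 genes tested within 5 Mb, 42 rose and 9 fell, where 32.1% of all genes rose and 32.1% fell. The median change of the 66 was 0.31, and 15 of them had a more positive change than ABCC10. Less that median, ABCC10 stood at 0.37 (limma adjusted p = 0.00193, SE kept), and its difference from HCC827 stood at 0.21 (limma adjusted p = 0.161), which ends that call. The nearest genes starting before it changed by 1.14 (ZNF318), -0.13 (CRIP3), 0.83 (DNPH1) and 0.77 (CUL9). The nearest starting after it changed by 0.22 (TJAP1), 0.48 (POLR1C), 0.35 (YIPF3) and 0.31 (XPO5). The median joins both sides, so the value of 0.37 depends on the window drawn around ABCC10. In PC9 and HCC827 the medians of its neighbours were -0.012 and -0.0053. The end of ABCC10 overlaps DLK2 on the other strand, which stayed between 0.0901 and 0.815 FPKM.

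**Figure D2:**
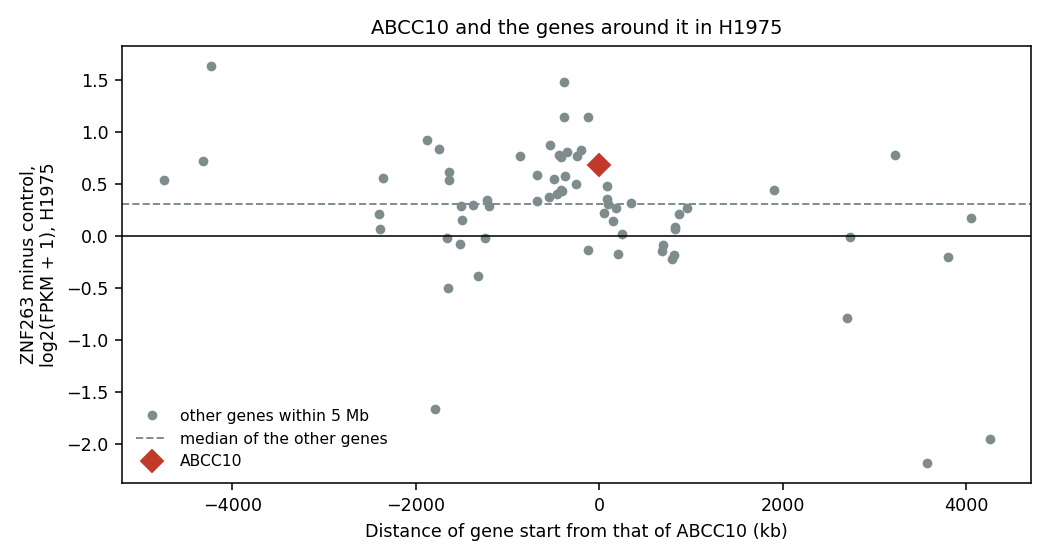
Change with ZNF263 in H1975 (log2(FPKM + 1) scale) of ABCC10 (diamond) and of the 66 tested genes within 5 Mb (points), by distance of their starts from that of ABCC10 in kb, with the median of those genes as a dashed line. ABCC10 stands at 0.69, above the median of 0.31 but below 15 of its neighbours.

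Promoter sequence was read for the members from RefSeq (GRCh38.p14), which matched 6 of 8 members with 12 windows of 300 bases, from 250 before to 50 after a start. ABCC1 and ABCC3 were not matched. Windows were searched on both strands for GGAGGA, the core of the purine-rich ZNF263 motif, for TGACNNNGC, the antioxidant response core bound by NRF2, and for GCGTG, the core bound by AHR with ARNT. Of 35116 promoter windows, 36.6% held GGAGGA, 13.3% held TGACNNNGC and 36.5% held GCGTG. The 250 bases before the start are shown for ABCC10, the member with the largest change, and for ABCC2 and ABCC4, with any match in capitals. A match on the other strand appears as its reverse complement.
ABCC10 start 1, chr6:43427291-43427540, plus strand: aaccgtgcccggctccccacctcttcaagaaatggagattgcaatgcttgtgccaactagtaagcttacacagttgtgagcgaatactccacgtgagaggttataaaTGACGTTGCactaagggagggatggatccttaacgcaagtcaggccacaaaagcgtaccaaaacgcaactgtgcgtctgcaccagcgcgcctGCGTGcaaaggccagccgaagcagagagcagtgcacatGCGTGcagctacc
ABCC2, chr10:99782390-99782639, plus strand: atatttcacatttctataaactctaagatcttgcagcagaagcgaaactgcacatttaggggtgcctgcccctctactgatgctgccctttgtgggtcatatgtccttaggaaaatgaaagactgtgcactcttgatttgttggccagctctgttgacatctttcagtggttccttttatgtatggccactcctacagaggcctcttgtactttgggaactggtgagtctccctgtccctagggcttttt
ABCC4, chr13:95301452-95301701, minus strand: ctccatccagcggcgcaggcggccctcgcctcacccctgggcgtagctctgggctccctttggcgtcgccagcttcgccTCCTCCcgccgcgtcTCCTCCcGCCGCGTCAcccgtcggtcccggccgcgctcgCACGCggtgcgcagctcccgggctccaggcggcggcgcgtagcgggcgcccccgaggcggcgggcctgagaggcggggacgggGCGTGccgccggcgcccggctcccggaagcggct

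The upstream of the 2 ABCC10 windows held 1 TGACNNNGC and 3 GCGTG in its 300 bases, 2 of them among those printed, and no GGAGGA. The other ABCC10 window held 1 GGAGGA. The ABCC4 window held 2 GGAGGA, 1 TGACNNNGC and 3 GCGTG, 2 of them among the printed bases, and the ABCC2 window held none of these letters. No matches overlapped in the printed bases. GGAGGA was also found in both ABCB1 windows and in that of ABCC5, and in none of the 5 ABCG2 windows. With windows numbered by rising coordinate, GCGTG was also found in ABCB1 window 1, in the ABCC5 window and in ABCG2 windows 1 to 3, which overlap. TGACNNNGC was also found in ABCG2 window 4. These are matches of letters, and no binding was measured.

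ABCC1 (MRP1), at chr16:15949577-16143074 (plus strand), exports glutathione conjugates and leukotrienes. In PC9 its level was 138 and 134 FPKM with ZNF263, against 118 and 113 FPKM in controls, and the groups did not overlap. It rose there by 0.24 ± 0.053 (SE, limma adjusted p = 0.0113). In HCC827 it was 16.0 and 15.5 FPKM with ZNF263, against 16.8 and 16.3 FPKM in controls, and in H1975 13.3 and 13.8 FPKM, against 13.2 and 14.0 FPKM. The HCC827 groups stood apart and the H1975 groups overlapped, with log2 changes of -0.065 ± 0.053 and -0.0010 ± 0.053. By the limma F test this change differed among the 3 lines (adjusted p = 0.0084), with HCC827 minus PC9 at -0.30 ± 0.075 (limma adjusted p = 0.0246) and H1975 minus PC9 at -0.24 ± 0.075 (limma adjusted p = 0.0167).

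The ABCC1 call in PC9 was lost without control replicate 2 of PC9 (0.21, limma adjusted p = 0.123), without ZNF263 replicate 1 of PC9 (0.22, limma adjusted p = 0.0938) or on the 4 PC9 libraries alone (limma adjusted p = 0.0603). The F test was lost without control replicate 2 of PC9 (limma adjusted p = 0.0508), and the 2 differences reached adjusted p-values of 0.108 and 0.0733 with 1 library left out. In H1975 the 44 genes around ABCC1 had a median change of 0.21. Less that median, ABCC1 stood at -0.21 (limma adjusted p = 0.00404, SE kept). As the change of ABCC1 itself was -0.0010, that value is the neighbours' median with its sign turned. Its p-value says little about ABCC1 itself.

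ABCC2 (MRP2), at chr10:99782640-99852594 (plus strand), is the apical exporter of conjugates, known from the secretion of bilirubin glucuronides into bile. In HCC827 its level was 3.13 and 4.05 FPKM with ZNF263, against 2.59 and 2.77 FPKM in controls. Both ZNF263 libraries were higher, and the gap between them was wider than the gap from the lower of them to the controls. The log2 change was 0.31 ± 0.086 (SE, limma adjusted p = 0.0241). The call was lost without HCC827 control replicate 1 (0.28, limma adjusted p = 0.1004), without HCC827 ZNF263 replicate 2 (0.17, limma adjusted p = 0.202), with quantile normalization (0.21, limma adjusted p = 0.140) and on the 4 HCC827 libraries alone (limma adjusted p = 0.181).

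In PC9, where ABCC2 was among the most abundant members, it was 115 and 119 FPKM with ZNF263, against 118 and 116 FPKM in controls. The groups overlapped, and the change was 0.0032 with a 95% interval from -0.18 to 0.19. In H1975 it was 0.360 and 0.381 FPKM with ZNF263, against 0.258 and 0.331 FPKM in controls, a log2 change of 0.083 (limma adjusted p = 0.427). Less the median of its 95 neighbours, which was -0.21, that change stood at 0.29 (limma adjusted p = 0.0115, SE kept). ABCC2 stayed under 1 FPKM in H1975, where the log2(FPKM + 1) scale keeps changes small. Most of the 0.29 is thus the neighbours' median with its sign turned, and its p-value says little about ABCC2 itself. The difference between lines was not called (F test, limma adjusted p = 0.0955), but was without HCC827 ZNF263 replicate 1 (0.00728).

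ABCG2, at chr4:88090264-88231322 (minus strand), exports several kinase inhibitors and works as a dimer. In H1975 its level was 4.01 and 4.34 FPKM with ZNF263, against 3.47 and 3.20 FPKM in controls. In PC9 the order was the other way, with 6.07 and 5.94 FPKM with ZNF263, against 7.12 and 6.83 FPKM in controls. In HCC827 it was 1.61 and 1.97 FPKM, against 1.63 and 1.27 FPKM, and the groups overlapped. ABCG2 rose by 0.26 ± 0.090 (SE) in H1975 (limma adjusted p = 0.0246), and its log2 change was -0.19 ± 0.090 in PC9 (limma adjusted p = 0.225) and 0.19 ± 0.090 in HCC827 (limma adjusted p = 0.169).

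The limma F test called a difference between lines for ABCG2 (adjusted p = 0.0182), with H1975 minus PC9 at 0.44 ± 0.127 (SE, limma adjusted p = 0.0105). The rise in H1975 did not pass without H1975 control replicate 2 (0.21, limma adjusted p = 0.133) or without H1975 ZNF263 replicate 2 (0.21, limma adjusted p = 0.137). Its 27 neighbours had a median change of 0.14 there. Less that median, ABCG2 stood at 0.12 (limma adjusted p = 0.291, SE kept). The difference between H1975 and PC9, less that of the neighbours, stood at 0.30 (limma adjusted p = 0.0760, SE kept), so that call was lost as well. The F test was lost without control replicate 1 of PC9 (limma adjusted p = 0.0750), PC9 ZNF263 replicate 1 (0.0509) or PC9 ZNF263 replicate 2 (0.0648).

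ABCC4 (MRP4), at chr13:95019829-95301475 (minus strand), exports cyclic nucleotides and prostanoids. In H1975 its level was 5.13 and 5.03 FPKM with ZNF263, against 4.24 and 4.44 FPKM in controls. It rose there by 0.19 ± 0.072 (SE, limma adjusted p = 0.0354). The call was lost when any of the 4 H1975 libraries was left out, with limma adjusted p-values from 0.0625 to 0.154. In PC9 it was 27.1 and 28.99 FPKM with ZNF263, against 27.2 and 25.9 FPKM in controls, and in HCC827 7.88 and 7.62 FPKM against 7.69 and 8.89 FPKM, with overlapping groups in both lines. The change in H1975 was larger than in HCC827 by 0.27 ± 0.102 (limma adjusted p = 0.0384), although the F test over the 3 lines was not called (limma adjusted p = 0.0873). The F test was called with median-of-ratios scaling (limma adjusted p = 0.0330), with quantile normalization (0.0202) and without HCC827 control replicate 1 (0.0128). The difference between H1975 and HCC827 was lost with most single libraries left out, and stood at 0.18 without HCC827 control replicate 2 (limma adjusted p = 0.115).

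ABCB1, at chr7:87503633-87713323 (minus strand), was a low transcript in every line. In PC9 its level was 2.82 and 3.07 FPKM with ZNF263, against 2.50 and 2.47 FPKM in controls. The groups did not overlap, and the log2 change was 0.18 ± 0.070 (SE, limma adjusted p = 0.131). In HCC827 it was 0.312 and 0.371 FPKM with ZNF263, against 0.491 and 0.360 FPKM in controls, with between 31 and 50 reads a library and overlapping groups. In H1975 3 and 2 reads stood behind the ZNF263 libraries, against 4 and 2 reads in the controls, so no difference was detectable at this depth and no fold is given. The difference between lines was not called for ABCB1 (F test, limma adjusted p = 0.0810), but was without a filter on low values (0.0442). HCC827 minus PC9 stood at -0.26 ± 0.098 (SE, limma adjusted p = 0.116). ABCB1 overlaps RUNDC3B on the other strand, which stayed between 0 and 0.300 FPKM.

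ABCC5 (MRP5), at chr3:183919934-184018015 (minus strand), exports cyclic nucleotides and nucleotide analogues. It was called in no line. It overlaps the antisense gene ABCC5-AS1, which was not analysed here. In H1975 its level was 6.87 and 6.92 FPKM with ZNF263, against 7.53 and 7.44 FPKM in controls, a log2 change of -0.10 ± 0.071 (SE, limma adjusted p = 0.223). In HCC827 it was 4.14 and 4.18 FPKM with ZNF263, against 3.74 and 3.84 FPKM in controls, a log2 change of 0.11 ± 0.071 (limma adjusted p = 0.327). The groups stood apart in opposite directions in these lines, and the difference between lines was not called (F test, limma adjusted p = 0.180). In PC9 the libraries were 2.75 and 2.35 FPKM against 2.63 and 2.71 FPKM and overlapped.

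**Figure D3:**
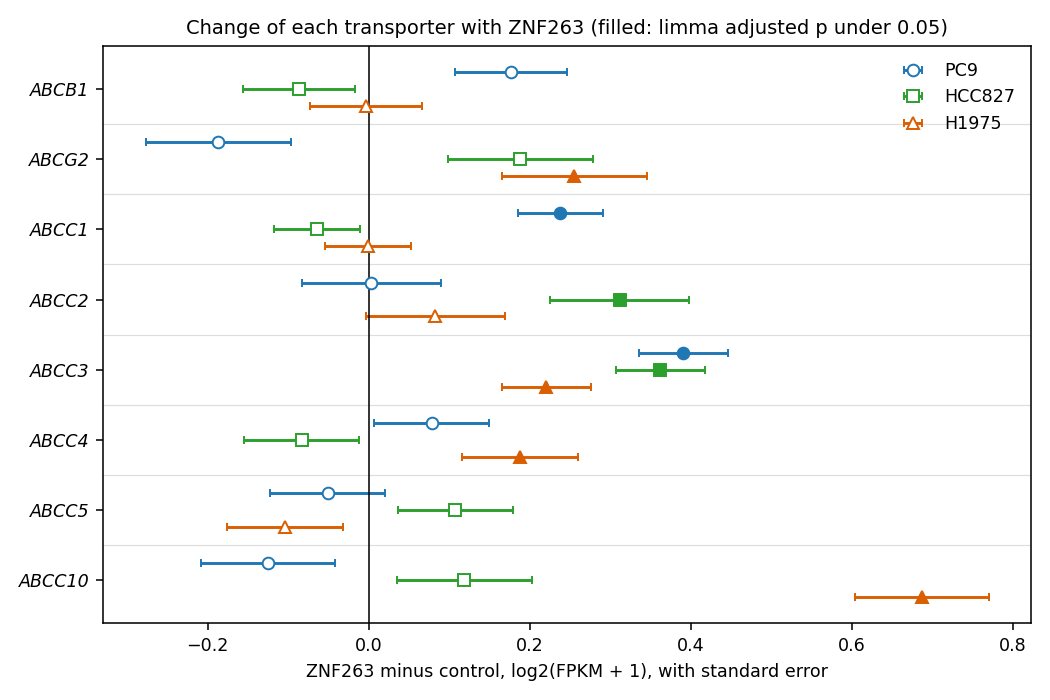
Change of each transporter with ZNF263 (ZNF263 minus control, log2(FPKM + 1) scale, with SE) in PC9 (circles), HCC827 (squares) and H1975 (triangles), with filled symbols where the limma adjusted p is under 0.05. ABCC3 is filled in all 3 lines, at 0.39, 0.36 and 0.22, and ABCC10 in H1975 stands furthest to the right at 0.69.

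Counted by whether the ZNF263 and control libraries overlapped, 3 members lay wholly higher and 2 wholly lower in PC9 (57.7% of all genes did not overlap), 3 higher and 1 lower in HCC827 (53.9%), and 5 higher and 1 lower in H1975 (82.5%). Averaged over the lines, 3 of 8 members were called, all higher, against 52.9% of 12218 genes (28.9% higher and 23.9% lower). Beside ABCC3 these were ABCC10 at 0.23 ± 0.048 (SE, limma adjusted p = 0.00165) and ABCC2 at 0.13 ± 0.050 (limma adjusted p = 0.0396). The ABCC10 mean joins unlike changes, 0.69 in H1975, the only line with a call, 0.12 in HCC827 and -0.13 in PC9. Less the neighbours' median the ABCC10 mean stood at 0.14 (limma adjusted p = 0.0317, SE kept). The ABCC2 mean did not pass without a filter on low values (limma adjusted p = 0.0630), with median-of-ratios scaling (0.0640) or with quantile normalization (0.0633), or with most single libraries left out (up to 0.108). The F test called 3 of 8 members, ABCC1, ABCC10 and ABCG2, against 60.3% of all genes. Of the pairwise differences, HCC827 minus PC9 was called for 1 member (9.6% of all genes), H1975 minus PC9 for 3 members (54.1%) and H1975 minus HCC827 for 2 members (53.7%).

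The 3 lines differed in which transporter dominated. Summed over the 8 members, PC9 held 393 and 392.2 FPKM with ZNF263, against 351 and 344 FPKM in controls. HCC827 held 97.0 and 97.6 FPKM with ZNF263, against 85.3 and 81.8 FPKM in controls, and H1975 held 56.5 and 55.6 FPKM, against 47.7 and 49.2 FPKM. In PC9 with ZNF263, ABCC1 (34.8%), ABCC2 (29.8%) and ABCC3 (24.6%) made up most of that sum, against 33.2%, 33.6% and 21.1% in controls. In HCC827 ABCC3 made up 58.8% with ZNF263 and 53.1% in controls. In H1975 ABCC3 and ABCC1 led with 28.6% and 24.2% with ZNF263, against 28.1% each in controls, and ABCC10 came next with 17.7% in ZNF263 libraries, against 11.9% in controls, where ABCC5 stood above it.

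In control cells, ABCB1, ABCC1, ABCC2, ABCC3 and ABCC4 ran down in the order PC9, HCC827, H1975. ABCC2 spanned the widest range of the members with reads to compare, at 117 FPKM in PC9, 2.68 FPKM in HCC827 and 0.295 FPKM in H1975. ABCC5 ran in the reverse order, at 2.67, 3.79 and 7.49 FPKM. ABCC10 stood at 3.32 FPKM in PC9 and at 6.05 and 5.78 FPKM in HCC827 and H1975, whose libraries overlapped, and ABCG2 at 6.97, 1.45 and 3.33 FPKM. The HCC827 and H1975 values of all 8 members rest on the same gene lengths up to whole factors, whereas PC9 rests on others. Between PC9 and HCC827, 19.9% of 1486 sampled genes lay within 1% of the typical ratio of reads per FPKM. Between HCC827 and H1975, 85.8% of 1484 did. For PC9 over HCC827, ABCC3 stood at 1.21, ABCC5 at 0.643 and ABCB1 at 0.429 times the typical ratio, known only up to whole factors. Levels of PC9 are therefore set beside the others with no test.

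**Figure D4:**
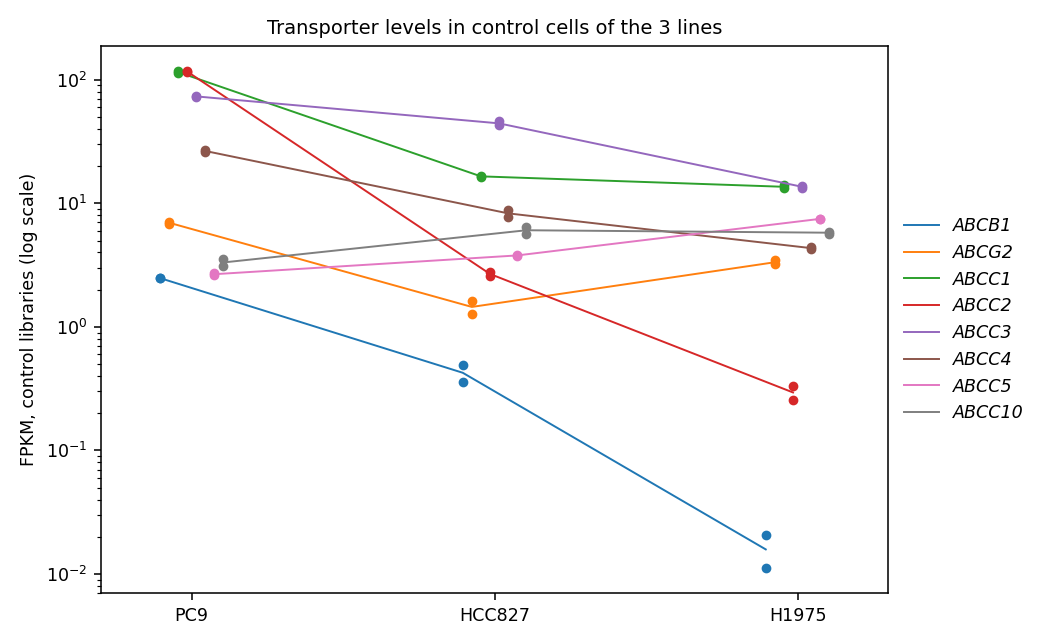
FPKM of the 8 transporters in the control libraries of each line (points, 2 libraries; lines join the means; log axis). ABCC2 runs from 117 FPKM in PC9 to 0.295 FPKM in H1975, while ABCC5 and ABCC10 are lowest in PC9.

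The genes most like each member were ranked by Pearson correlation over the 12 libraries, with log2 values centred within each line, among 12210 genes, as a description. These points share library, depth and the ZNF263 contrast, so genes picked this way tend to share a member's calls. For ABCC3 they were A4GALT, which makes a blood group glycolipid, at r = 0.979, the phospholipase PLD2 at 0.976 and IGFBP7 at 0.961. A4GALT and IGFBP7 were called higher in all 3 lines, by 0.47 and 0.58 in PC9. For ABCC10 the closest was DNPH1 at r = 0.990, which lies near it at chr6:43225629-43229484, followed by DHPS and TIMP1. For ABCC1 they were MMP7, PSME1 and LGALS3BP, with r from 0.939 to 0.948, each called higher in PC9 and not called in H1975.

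Other ABC transporters were described from a list of 40 genes, of which 20 were tested. In PC9 2 rose and 0 fell (10% called, against 11.3% of all genes tested). In HCC827 5 rose and 3 fell (40%, against 19.5%), and in H1975 8 rose and 5 fell (65%, against 64.2%). The median changes of the list were 0.058, 0.16 and 0.13. ABCA12, a lipid transporter of keratinocytes, rose by 0.44 in PC9 (limma adjusted p = 0.00309) and by 0.58 in HCC827 (0.000408), and fell by 1.24 in H1975 (2.64e-08). ABCD3, which carries fatty acids into peroxisomes, rose by 0.68 in HCC827 and 1.14 in H1975, and ABCA2, a lipid transporter of endolysosomes, rose by 0.99 in H1975.

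Genes that make, supply or cleave the conjugates exported by ABCC proteins were counted in the same way. Of the glutathione list 3 of 21 tested genes rose and 1 fell in PC9 (19.0% called, against 11.3% of all genes). In HCC827 8 of 20 rose and 2 fell (50%, against 19.5%), and in H1975 8 of 21 rose and 10 fell (85.7%, against 64.2%). GGT5, an enzyme that cleaves glutathione conjugates such as leukotrienes, rose by 0.87 in HCC827 (limma adjusted p = 6.39e-05). In H1975 the glutathione transferase GSTM4 rose by 2.11, a value that is uncertain because near copies of the gene can share its reads, and GCLM, the modifier of glutathione synthesis, fell by 0.87. Of the glucuronidation and sulfation list 3 of 14 tested genes rose and 0 fell in PC9 (21.4% called, against 11.3%). In HCC827 6 of 12 rose and 0 fell (50%, against 19.5%), and in H1975 2 of 14 rose and 3 fell (35.7%, against 64.2%). With the 4 PC9 libraries fitted alone, 1 glutathione gene and 0 glucuronidation and sulfation genes were called. PAPSS2, which makes the sulfate donor, rose by 0.41 in HCC827 and 1.26 in H1975. UGT1A1 and UGT1A6, glucuronosyltransferases that share exons so that reads between them are uncertain, rose by 0.42 and 0.38 in PC9, and both calls were lost when PC9 control replicate 2 was left out (limma adjusted p = 0.0885 and 0.0863).

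Of the uptake carriers and other exporters, 5 of 20 tested genes rose and 1 fell in PC9 (30% called, against 11.3% of all genes). With the 4 PC9 libraries fitted alone, 0 of them were called. In HCC827 4 rose and 2 fell (30%, against 19.5%), and in H1975 5 rose and 4 fell (45%, against 64.2%). SLCO1B1, an organic anion uptake carrier known from liver, rose by 0.57 in PC9, and SLC46A1, the proton-coupled folate transporter, fell by 1.19 in H1975. Of the regulators and membrane partners of the transporters, 4 of 21 tested genes rose and 1 fell in PC9 (23.8% called, against 11.3%). In HCC827 0 rose and 5 fell (23.8%, against 19.5%), and in H1975 10 rose and 5 fell (71.4%, against 64.2%). NR1H4, the bile acid receptor, rose by 0.62 in PC9, PIM1, a kinase known to phosphorylate ABCG2, fell by 0.51 in HCC827, and AHR, the aryl hydrocarbon receptor, rose by 1.35 in H1975. Of the drug oxidation list 5 of 16 tested genes rose and 1 fell in PC9 (37.5% called, against 11.3%). In HCC827 5 rose and 0 fell (31.25%, against 19.5%). In H1975 4 rose and 6 fell (62.5%, against 64.2%). There CYP1A1, a classical AHR target, fell by 1.43 and CYP24A1, which breaks down vitamin D, fell by 2.303. Values in this and the preceding paragraphs on lists are log2 changes from the same limma fit, and each gene named passed at an adjusted p under 0.05. With the 4 PC9 libraries fitted alone, ABCA12, UGT1A1, UGT1A6, SLCO1B1 and NR1H4 did not pass in PC9, with limma adjusted p-values of 0.0638, 0.0984, 0.0522, 0.0755 and 0.0575. PAPSS2 did not pass on the 4 HCC827 libraries alone (limma adjusted p = 0.0516). With any PC9 library left out, 1 or 2 genes were called in PC9 in each of the uptake, glutathione and glucuronidation lists, and 2 or 3 regulators. In HCC827 from 3 to 9 glutathione genes and from 2 to 8 other ABC transporters were then called.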

How the data were processed

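Expression was measured by RNA-seq in 12 libraries, grouped by their cell line and genotype labels. The authors deposited FPKM values, and the genome build was GRCh38.p13, per the submitters' processing notes. The sources used here do not give the aligner, counting tool, annotation or strandedness, so reads of overlapping genes on opposite strands cannot be told apart. Of 20030 entries, 27 named as dates were left out. Library totals are unknown. Whole reads were recovered from the FPKM steps for 99.4%, 99.7% and 99.0% of genes tried in PC9, HCC827 and H1975, against 7.37%, 7.45% and 8.11% after shuffling values between genes, and read numbers are the smallest that make a gene's values whole. Libraries of a group differed beyond sampling (mean chi-square 1.74 to 4.10 over genes, where sampling gives 1), and each was counted as a sample.

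Genes that reached 1 FPKM in any 2 of the 12 libraries were analysed as log2(FPKM + 1) of the deposited values, which understates changes of low genes, with limma 3.58.1 in R 4.3.3 (eBayes with a trended prior variance, 6 group means, 1 shared spread), after testing on simulated data. Contrasts were ZNF263 minus control per line, their mean over lines, and differences between lines (F test and pairs), all two-sided, and each list or member p-value was adjusted over all genes of a contrast. Levels were not tested across lines. Gene coordinates come from GENCODE (GRCh38). Named genes were all members, the genes of each list with the largest called changes per line, at most 3 a list, and the 3 genes most correlated with a member. The members and lists were chosen with earlier results of these data known. Alternatives covered the pseudocount (0.1), the filter, median-of-ratios and quantile scaling within a line, and the 4 libraries of a line alone. They also covered the replicate number as a block, leaving out each library, and subtracting the median change of at least 10 genes within 5 Mb. That subtraction kept the limma SE and took the median as free of error, and its p-values were computed and adjusted anew.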

Additional observations from a re-analysis of the deposited data

Results flagged for a closer look

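The changes of 3 members with ZNF263 differed between lines by the F test on all 12 libraries. ABCC10 had the smallest adjusted p (limma adjusted p = 0.000201), with changes of 0.69 in H1975, 0.12 in HCC827 and -0.13 in PC9. ABCC1 followed (limma adjusted p = 0.0084), with changes of -0.0010 in H1975, -0.065 in HCC827 and 0.24 in PC9. For ABCG2 (limma adjusted p = 0.0182) the changes were 0.26 in H1975, 0.19 in HCC827 and -0.19 in PC9. The F test was called for 60.3% of all genes.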

How the results depend on the processing

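ABCC3 in each line and ABCC10 in H1975 kept direction and call under every alternative run. With the 4 libraries of a line fitted alone, 407 genes and 1 member were called in PC9, and 634 genes and 1 member in HCC827, where the lists of other genes held 1 or 2 calls each. Quantile normalization left 1 member called in HCC827. The replicate numbers did not pair the libraries (correlation of deviations 0.037 in PC9, 0.089 in HCC827 and -0.043 in H1975). With the replicate number as a block, 1364, 2262 and 7850 genes were called, against 1430, 2386 and 7870 without it, and 2 members were called in H1975, where ABCG2 (limma adjusted p = 0.0508) and ABCC4 (0.0551) no longer passed, nor did ABCC4 for H1975 minus HCC827 (0.0587).

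With 1 library left out, calls over all genes ranged from 591 to 854 in PC9, 1082 to 3109 in HCC827, 6886 to 6970 in H1975, 5709 to 6663 for the mean over lines and 6465 to 8074 for the difference between lines. Members called ranged from 1 to 2 in PC9, 1 to 2 in HCC827, 2 to 3 in H1975, 2 to 4 for the mean and 2 to 4 for the difference.

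Reversals were of uncalled changes. ABCB1 averaged -0.015 over lines with a pseudocount of 0.1 and -0.012 with quantile normalization, which put it at 0.00014 in H1975. Less the neighbours' median, ABCB1 stood at 0.15 and ABCC5 at 0.038 in H1975, ABCC1 at -0.0060, ABCC5 at 0.019 and ABCG2 at -0.0033 in the mean, ABCC5 at 0.049 for H1975 minus PC9 and ABCC1 at -0.031 for H1975 minus HCC827. With 1 library left out, ranges crossing 0 ran from -0.027 to 0.033 (ABCC2) and -0.13 to 0.030 (ABCC5) in PC9, -0.18 to 0.0098 (ABCC4) in HCC827, -0.011 to 0.0027 (ABCB1) and -0.039 to 0.037 (ABCC1) in H1975, -0.043 to 0.011 (ABCC5) in the mean, -0.13 to 0.028 (ABCC5, H1975 minus PC9), -0.080 to 0.023 (ABCC3, HCC827 minus PC9) and -0.039 to 0.17 (ABCG2, H1975 minus HCC827). The cause was not tested. Fits of a line alone cannot give the mean or the difference between lines, and the F test was not run less neighbours. Depth limits ABCB1 in H1975, at 2 to 4 reads a library.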
